A study of Rattus norvegicus with 10 samples.

Results

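The genes described here encode the NLRP3 inflammasome and the interleukin 1 system, 9 in all, chosen by name from the 32545 genes of the deposited table. They are the sensor Nlrp3, the adaptor Pycard, the protease Casp1, the pore protein Gsdmd, the cytokines Il1b and Il18, the receptor antagonist Il1rn, the receptor Il1r1 and the ATP-gated channel P2rx7. Each symbol matched 1 row of the table, and all 9 passed the filter for testing, a mean of at least 0.5 FPKM over the libraries (fragments per kilobase of gene length, scaled by the authors to library size). The libraries came from kidney cortex of Dahl salt-sensitive rats (SS/JrHsdMcwi, labelled wild type), an inbred strain that becomes hypertensive when fed salt. Animals were fitted with telemeters at 8 to 9 weeks of age while on 0.4% NaCl, and then ate 1 of 2 diets for 3 weeks. The first group (5 libraries) ate 4% NaCl with 2% oxonic acid, an inhibitor of uricase, the enzyme by which rodents degrade uric acid. The other group (5 libraries), labelled vehicle, ate 4% NaCl without it, so the high salt load was common to both. Both sexes were included, but no library is tied by its labels to a sex or to its own rat. The p-values therefore measure the spread between these libraries, part of which may be technical.

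The inflammasome is assembled in the cytosol, mostly in macrophages and other myeloid cells. NLRP3 senses cell stress, including potassium efflux through P2X7 and, in cell culture, urate crystals, and nucleates filaments of the adaptor ASC, which Pycard encodes. ASC recruits pro-caspase-1, which then cleaves the precursors of interleukin 1 beta and interleukin 18 and frees the pore-forming end of gasdermin D, through which the cytokines leave the cell. Interleukin 1 beta acts through the type 1 receptor, and the antagonist encoded by Il1rn occupies that receptor without signalling.

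Reads in genes numbered 14.5 M to 18.5 M per library. Vehicle library 4 had an extreme score on the first principal component, 39.8 against -13.7 to 15.5 for the other libraries, and had the lowest share of mitochondrial transcripts, 9.23% against 11.3% to 13.5%. Vehicle library 2 had the highest level of macrophage and monocyte markers. The sample numbers fall into 3 runs, of which the first holds 3 oxonic acid and 0 vehicle libraries, the second 1 and 3, and the third 1 and 2. Nothing in the labels names them as batches. Proximal tubule markers summed to 10428 to 11465 FPKM on oxonic acid and 9789 to 11084 FPKM on vehicle, with all 12 listed markers tested. Inner medulla markers were detected too, and oxonic acid library 3 stood apart in them, with a mean log2 level of 5.30 against 3.33 to 3.98 in the other 9 libraries and a summed level of 393 FPKM against 189 to 319 FPKM. Without that library the median log2 difference of the 9 genes was -0.16 and that of Pycard -0.43. Distal nephron and collecting duct markers were higher on oxonic acid in 11 of 12 tested, with a median log2 difference of 0.32 and 0 past the threshold, and their part in the values below was not tested.

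In limma's test across 14508 genes, 0 genes passed an adjusted p of 0.05 (0% of genes tested), and so 0 of the 9 genes passed. At an unadjusted p under 0.05 there were 1377 genes (9.49%), 750 of them lower on oxonic acid (5.17%), while limma's voom, run on recovered reads, called 0 genes and put 1528 under that unadjusted level. All 9 genes had a lower mean log2 level on oxonic acid, where 48.2% of all tested genes were lower. The count was 7 to 9 of 9 when 1 library was left out, 8 of 9 with a pseudocount of 0.1, and 3 of 9 with the macrophage marker level as a covariate. Their median log2 difference was -0.14, against 0.0053 over all genes tested. The differences ran from -0.47 for Pycard to -0.0021 for Il1r1.

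**Figure D1:**
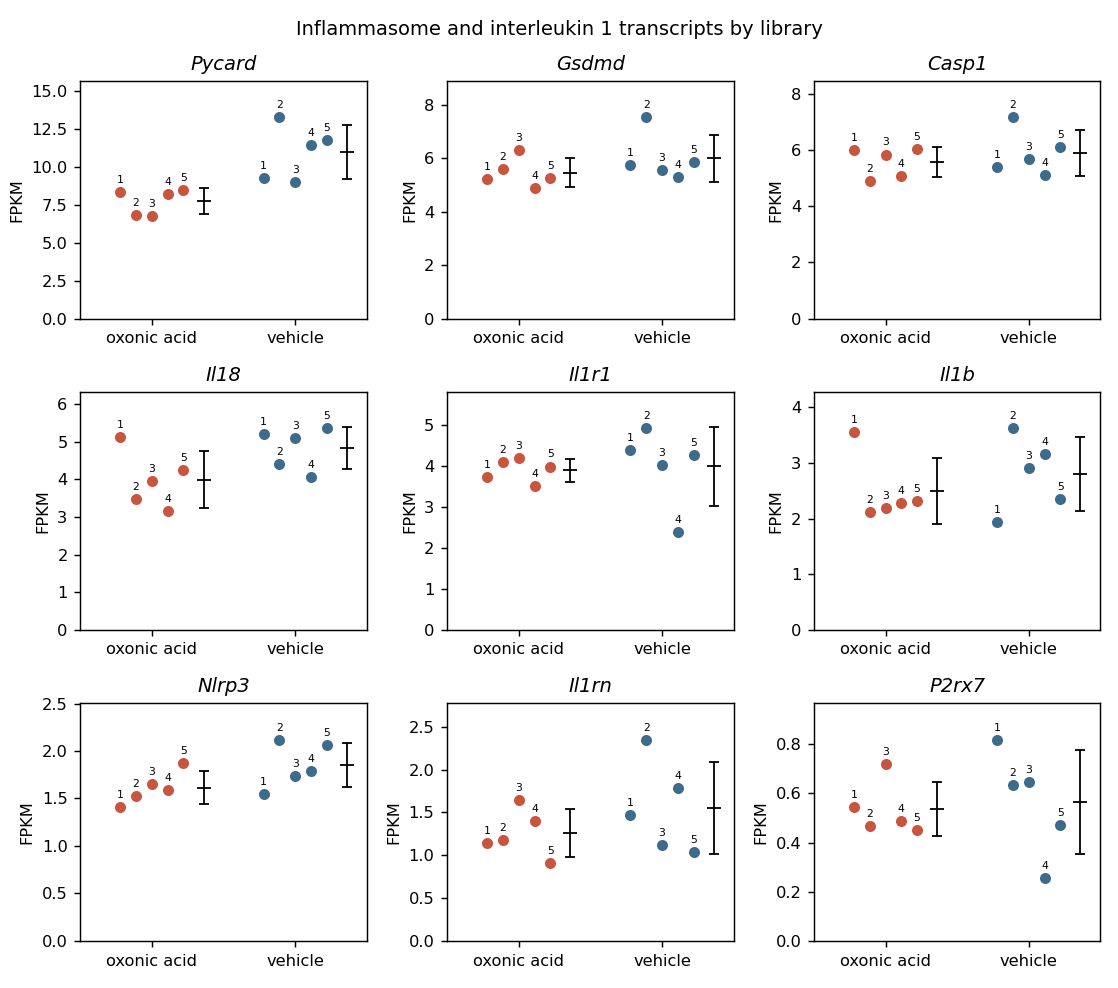
FPKM of each gene in the 5 oxonic acid libraries (red) and the 5 vehicle libraries (blue), numbered by replicate, with the mean and SD of each group beside the points; each panel has its own axis from 0. For Pycard every oxonic acid library lies below 8.99 FPKM, the lowest vehicle library, whereas the groups overlap in the other 8 panels.

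Pycard, the adaptor that links sensor and protease, showed the widest separation of the 9. It measured 8.35, 6.83, 6.73, 8.18 and 8.48 FPKM in oxonic acid libraries 1 to 5, against 9.28, 13.2, 8.99, 11.4 and 11.8 FPKM in vehicle libraries 1 to 5. Every oxonic acid library was below every vehicle library. In 140 of all tested genes (0.965%) the groups were separated in that direction. The values rest on 92 to 138 reads per library on oxonic acid and 135 to 233 on vehicle. The exact Poisson 95% interval, which covers counting error only, was 6.99 to 10.2 FPKM in oxonic acid library 5. In vehicle library 3 it was 7.54 to 10.6 FPKM, so the intervals of these neighbouring libraries overlapped. The means were 7.72 ± 0.859 FPKM on oxonic acid and 10.9 ± 1.79 FPKM on vehicle (SD, n = 5 each). The log2 difference was -0.47 (SE 0.11, 95% interval -0.72 to -0.22), a fold of 0.722, and did not pass (limma adjusted p = 0.333, rank 67 by p among all genes tested). Within the second run of sample numbers the difference was -0.32 and within the third -0.43, each with 1 oxonic acid library. With the runs as a block it was -0.37 (limma adjusted p = 0.733). Without vehicle library 2, the highest, it was -0.40.

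The Pycard gene (ENSRNOG00000019675) spans chromosome 1, 199437832 to 199439210, on the minus strand in the deposited table, whose genome build the sources used here do not give. Its promoter is shown because this gene had the widest separation, beside those of Casp1 and Il1b, whose groups overlapped. The sequences come from RefSeq on the build GRCr8, whose coordinates are not those of the deposited table, and run from 250 bases before to 50 after the annotated start, written 5′ to 3′ on the gene's strand. Capitals mark matches, on either strand, to 5 motifs: the NF-kappaB consensus, TATAAA, the interferon response element (GAAA, NN, GAAA), the AP-1 site TGACTCA and the GC box GGGCGG.
Pycard, chr1:192033370-192033669, minus strand: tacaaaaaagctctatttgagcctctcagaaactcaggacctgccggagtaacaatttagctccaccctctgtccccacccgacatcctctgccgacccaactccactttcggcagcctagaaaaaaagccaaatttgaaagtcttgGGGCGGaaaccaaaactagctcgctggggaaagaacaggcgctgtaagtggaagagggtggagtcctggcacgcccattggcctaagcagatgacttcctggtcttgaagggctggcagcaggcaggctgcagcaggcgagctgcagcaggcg
Casp1, chr8:10872580-10872879, plus strand: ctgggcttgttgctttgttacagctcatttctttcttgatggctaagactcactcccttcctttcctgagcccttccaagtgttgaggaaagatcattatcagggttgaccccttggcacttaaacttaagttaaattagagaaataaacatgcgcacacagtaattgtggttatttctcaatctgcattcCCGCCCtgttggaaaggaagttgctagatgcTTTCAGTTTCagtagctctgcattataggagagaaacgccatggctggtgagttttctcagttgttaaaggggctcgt
Il1b, chr3:137036532-137036831, minus strand: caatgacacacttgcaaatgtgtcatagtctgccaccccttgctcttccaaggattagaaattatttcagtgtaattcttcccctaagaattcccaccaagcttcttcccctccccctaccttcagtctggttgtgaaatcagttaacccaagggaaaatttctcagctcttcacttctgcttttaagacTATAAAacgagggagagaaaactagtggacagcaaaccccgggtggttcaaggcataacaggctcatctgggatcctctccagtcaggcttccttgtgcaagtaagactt
The capitals in the Pycard window are a GC box, present in 33.1% of 33469 promoters of the same length. The Casp1 window holds a GC box and an interferon response element, a motif found in 3.92% of promoters. The Il1b window holds TATAAA, found in 14.2%. No NF-kappaB consensus (7.51% of promoters) or AP-1 site (4.63%) was matched in these windows, and no matches overlapped. RefSeq promoters were matched for 8 of the 9 genes, all but Gsdmd. The Il1r1 window alone among the 8 held the NF-kappaB consensus.

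Nlrp3, the sensor that gives the complex its name, was a low-abundance transcript. Its values were 1.41, 1.53, 1.65, 1.59 and 1.88 FPKM in oxonic acid libraries 1 to 5, against 1.55, 2.12, 1.74, 1.79 and 2.06 FPKM in vehicle libraries 1 to 5, from 92 to 167 reads per library. The groups overlapped, with 4 of 5 oxonic acid libraries below the vehicle median. Between groups the log2 difference was -0.15 (SE 0.11, 95% interval -0.39 to 0.081, limma adjusted p = 0.648). With the runs as a block it was -0.083, and within runs it was -0.13 in the second and -0.025 in the third. The gene (ENSRNOG00000003170) lies on chromosome 10, 45893018 to 45918254, plus strand.

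Casp1, the protease of the complex, differed less. It measured 6.0, 4.90, 5.83, 5.06 and 6.04 FPKM in oxonic acid libraries 1 to 5, against 5.38, 7.16, 5.69, 5.10 and 6.11 FPKM in vehicle libraries 1 to 5. Only vehicle library 2 stood clear of the rest, and 3 of 5 oxonic acid libraries were above the vehicle median. The log2 difference was -0.070 (SE 0.098, 95% interval -0.29 to 0.15, limma adjusted p = 0.832), and it was -0.0024 without that library. The interval leaves room for a fold of 0.821 to 1.11. The ratio of Pycard to Casp1 in FPKM was 1.39 ± 0.164 on oxonic acid and 1.86 ± 0.249 on vehicle (SD, n = 5 each), with ranges of 1.15 to 1.62 and 1.58 to 2.24.

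Gsdmd, the pore protein cleaved by caspase-1, had a similar level and spread to Casp1. Values ran from 4.88 to 6.31 FPKM on oxonic acid and from 5.31 to 7.54 FPKM on vehicle. The highest of the 10 libraries was again vehicle library 2, and the other 9 lay within 4.88 to 6.31 FPKM. Its log2 difference was -0.12 (SE 0.099, 95% interval -0.34 to 0.097, limma adjusted p = 0.708), and it was -0.043 without vehicle library 2 and -0.21 with a block for the run. The table places Casp1 (ENSRNOG00000007372) on chromosome 8, 2604962 to 2614631, and Gsdmd (ENSRNOG00000007728) on chromosome 7, 116889572 to 116894134, both on the plus strand.

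Of the cytokines, Il18, which kidney epithelium as well as macrophages can express, came nearest to separation after Pycard. It measured 5.13, 3.49, 3.95, 3.17 and 4.25 FPKM in oxonic acid libraries 1 to 5, against 5.20, 4.4, 5.09, 4.07 and 5.35 FPKM in vehicle libraries 1 to 5. These values rest on 51 to 87 reads per library. Oxonic acid libraries 1 and 5 lay among the vehicle libraries, and 3 of 5 oxonic acid libraries lay below all of them. The means were 3.99 ± 0.757 FPKM on oxonic acid and 4.82 ± 0.557 FPKM on vehicle (SD, n = 5 each). On the log2 scale the difference was -0.25 (SE 0.12, 95% interval -0.52 to 0.015, limma adjusted p = 0.538). It was -0.34 without oxonic acid library 1 (limma adjusted p = 0.543), and it was -0.55 within the second run and -0.12 within the third. Il18 (ENSRNOG00000009848, chromosome 8, 54993859 to 55016299, plus strand) overlaps Bco2 and Tex12 on the minus strand, which averaged 0.720 and 0.507 FPKM. The labels do not say whether strand was used in counting, so reads of these genes cannot be told apart with certainty.

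Il1b, the cytokine most closely tied to NLRP3, was spread over the vehicle libraries and, except in library 1, close together in the oxonic acid libraries. It measured 3.56, 2.12, 2.19, 2.28 and 2.32 FPKM in oxonic acid libraries 1 to 5, against 1.94, 3.62, 2.92, 3.17 and 2.35 FPKM in vehicle libraries 1 to 5. The lowest library was from the vehicle group and the second highest from the oxonic acid group. The log2 difference was -0.14 (SE 0.17, 95% interval -0.50 to 0.23, limma adjusted p = 0.809). Leaving out oxonic acid library 1 gave -0.25, leaving out vehicle library 2 gave -0.049, and the runs as a block gave -0.21. At 43 to 96 reads per library, counting error alone is large for this gene: the exact Poisson 95% interval of oxonic acid library 1 was 2.82 to 4.44 FPKM. Such intervals cover counting error only. Its gene (ENSRNOG00000004649) lies on chromosome 3, 121876263 to 121882726, minus strand.

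Il1rn, the natural antagonist, lay below the agonist in every library. It ran from 0.913 to 1.65 FPKM on oxonic acid and from 1.03 to 2.35 FPKM on vehicle, on 27 to 91 reads. Vehicle library 2 was highest here too. This gave a log2 difference of -0.20 (SE 0.19, 95% interval -0.61 to 0.21, limma adjusted p = 0.741), and -0.073 without that library. The ratio of antagonist to agonist, Il1rn over Il1b in FPKM, was 0.527 ± 0.173 on oxonic acid and 0.559 ± 0.153 on vehicle (SD, n = 5 each), and its ranges, 0.321 to 0.753 and 0.384 to 0.760, overlapped nearly in full. The gene (ENSRNOG00000005871) is on chromosome 3, 1452644 to 1468614, plus strand.

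Il1r1, the signalling receptor, had nearly equal means, 3.89 ± 0.279 FPKM on oxonic acid and 3.99 ± 0.961 FPKM on vehicle (SD, n = 5 each). The oxonic acid libraries 1 to 5 measured 3.73, 4.08, 4.18, 3.49 and 3.98 FPKM, against 4.38, 4.91, 4.02, 2.37 and 4.27 FPKM in vehicle libraries 1 to 5. Vehicle library 4, which stood apart over all genes, was the lowest of the 10, and all 5 oxonic acid libraries lay below the vehicle median. The log2 difference was -0.0021 (SE 0.15, 95% interval -0.34 to 0.33, limma adjusted p = 0.998). Without vehicle library 4 it was -0.16 (limma adjusted p = 0.600), and without vehicle library 2 it was 0.073. It was -0.30 within the second run and 0.28 within the third, which holds vehicle library 4. Il1r1 (ENSRNOG00000014504) spans chromosome 9, 46962288 to 47036670, plus strand.

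P2rx7, the ATP-gated channel upstream of the sensor, was the least abundant of the 9, on 15 to 52 reads per library. It ran from 0.452 to 0.721 FPKM on oxonic acid and from 0.256 to 0.819 FPKM on vehicle. Vehicle libraries held both the highest and the lowest value. The log2 difference was -0.023 (SE 0.18, 95% interval -0.41 to 0.37, limma adjusted p = 0.978). The lowest value, 0.256 FPKM, was again in vehicle library 4, on 15 reads (exact Poisson 95% interval 0.143 to 0.422 FPKM), and without it the difference was -0.14. P2rx7 (ENSRNOG00000001296) lies on chromosome 12, 39353613 to 39396042, minus strand.

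**Figure D2:**
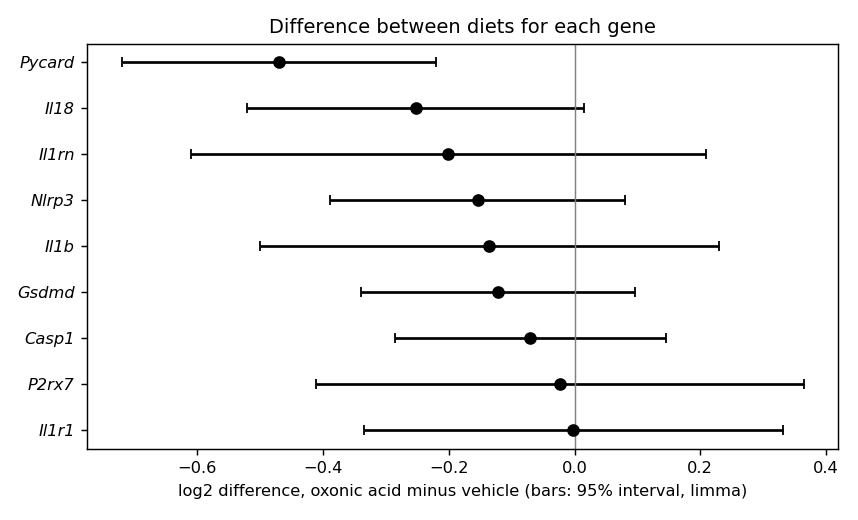
Log2 difference on the log2(FPKM + 0.5) scale, oxonic acid minus vehicle, with 95% intervals from limma for the 9 genes, ordered by size. All 9 points are below 0, and only the interval of Pycard, -0.72 to -0.22, leaves out 0.

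Levels per length put the adaptor first and the channel last. Over all 10 libraries the means were 9.33 FPKM for Pycard, 5.74 for Gsdmd, 5.73 for Casp1, 4.41 for Il18, 3.94 for Il1r1, 2.65 for Il1b, 1.73 for Nlrp3, 1.40 for Il1rn and 0.550 for P2rx7. Pycard was above Gsdmd in 10 of 10 libraries, Casp1 above Il18 in 10 of 10 and Il1b above Nlrp3 in 10 of 10, although the ranges over libraries overlapped. Gsdmd and Casp1 could not be ordered, Gsdmd being the higher in 5 of 10 libraries, nor could Il18 and Il1r1 (6 of 10). The range of P2rx7 alone lay clear of its neighbour's. Pycard exceeded the sensor Nlrp3 by a ratio of 4.83 ± 0.721 on oxonic acid and 5.90 ± 0.488 on vehicle (SD, n = 5 each).

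The spread between libraries of a group was not shared equally, and it includes counting error, whose part was not tested. Reads per library were 144 to 368 for Il1r1, 51 to 87 for Il18, 43 to 96 for Il1b and 15 to 52 for P2rx7. Within the oxonic acid group the coefficient of variation ran from 7.18% for Il1r1 to 24.1% for Il1b, a value that was 4.07% without oxonic acid library 1. Within the vehicle group it ran from 11.6% for Il18 to 37.6% for P2rx7, which was 22.1% without vehicle library 4. Vehicle library 2 had the highest value of 7 of the 9 genes, all but Il18 and P2rx7, and was the highest of the 10 libraries in macrophage marker level. Vehicle library 4 was lowest for Il1r1 and P2rx7 and second highest for Il1rn.

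**Figure D3:**
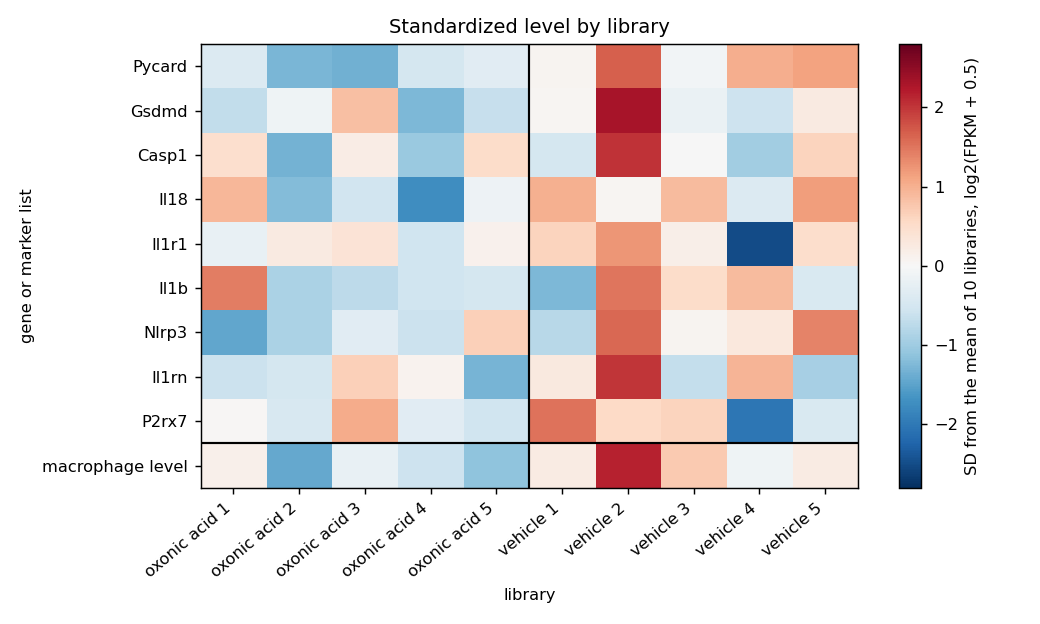
Level of each gene in each library, as SD from its mean over 10 libraries on the log2(FPKM + 0.5) scale, with the oxonic acid libraries on the left and vehicle libraries on the right; the bottom row is the mean level of 15 macrophage and monocyte markers. Vehicle library 2 is the highest in 7 of 9 gene rows and in the macrophage row, and vehicle library 4 is the lowest for Il1r1 and P2rx7.

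Most pairs of these genes varied in the same direction over the 10 libraries. Of 36 pairs, 29 had a positive Pearson r and the median was 0.329, or 0.2365 for deviations from each group's mean level. For r, 0 passed a permutation test after adjustment (100000 resamples, two-sided, smallest Benjamini-Hochberg adjusted p = 0.269). The highest was Il1r1 with P2rx7, with r = 0.777 (permutation p = 0.0134, adjusted p = 0.269) and rho = 0.576 (permutation p = 0.0884, adjusted p = 0.515). It was 0.474 without the 2 libraries farthest from the Il1r1 median. Nlrp3 with Pycard had r = 0.741 (permutation p = 0.0149, adjusted p = 0.269) and rho = 0.685 (permutation p = 0.0350, adjusted p = 0.515), and 0.375 without the 2 libraries farthest from the Nlrp3 median. Both values of r were thus lower without those libraries, whose removal also narrows the range compared. By rank the highest was Gsdmd with Il1r1, with rho = 0.879 (permutation p = 0.00178, adjusted p = 0.0641), which did not pass. Its r was 0.611, and 0.505 without the 2 libraries farthest from the Gsdmd median. The runs of sample numbers hold 3 to 4 libraries each, too few for a correlation within them.

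Macrophage and monocyte markers were mostly lower on oxonic acid as well, and 0 passed the test. Of 19 listed markers all were in the table, 15 were tested, 14 had lower means on oxonic acid, with a median log2 difference of -0.18. Their summed level was 412 to 521 FPKM on oxonic acid and 483 to 657 FPKM on vehicle, and their mean log2 level 3.54 ± 0.10 and 3.74 ± 0.138 (SD, n = 5 each). The mannose receptor Mrc1 measured 1.13 ± 0.146 FPKM on oxonic acid and 1.91 ± 0.378 FPKM on vehicle (limma adjusted p = 0.333), and the signalling adaptor Tyrobp 33.2 ± 2.71 and 42.8 ± 6.25 FPKM (limma adjusted p = 0.364), whereas the pan-macrophage marker Adgre1 measured 7.70 ± 1.60 and 8.03 ± 1.67 FPKM (limma adjusted p = 0.921; SD, n = 5 each). Marco was listed at 0 in all 10 libraries. In bulk tissue, fewer macrophages and less RNA per macrophage cannot be told apart.

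Over the 10 libraries all 9 genes correlated positively with the macrophage marker level, with r from 0.339 for Il1r1 to 0.712 for Casp1, and 0 of 9 passed (permutation test, smallest adjusted p = 0.0991). Casp1 had r = 0.712 (permutation p = 0.0229, adjusted p = 0.0991) and rho = 0.503 (permutation p = 0.143, adjusted p = 0.233). Pycard had r = 0.707 (permutation p = 0.0191, adjusted p = 0.0991) and rho = 0.721 (permutation p = 0.0238, adjusted p = 0.134). Without the 2 libraries farthest from the median marker level r was 0.0406 for Casp1, 0.288 for Pycard and -0.133 for Nlrp3 (0.480 with all 10). Leaving out those libraries also narrows the range of the marker level, which by itself can lower r. The lower values therefore cannot show whether the relations rest on those libraries. For Gsdmd, Il1b, Il1rn and Il1r1 r also fell, whereas it was 0.664 for Il18 (0.497 with all 10) and 0.359 for P2rx7 (0.382 with all 10). When deviations from each group's mean level were used, r was 0.765 for Casp1, 0.373 for Pycard and 0.179 for both Nlrp3 and Il18.

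Adding the macrophage marker level to the model as a covariate gave Pycard -0.35 on the log2 scale (SE 0.15, limma adjusted p = 0.536), Il18 -0.19 (limma adjusted p = 0.707) and Nlrp3 -0.11 (limma adjusted p = 0.808). The other 6 genes came out above 0, from 0.046 for Gsdmd to 0.19 for Il1r1, and 0 passed. The median of the 9 was then 0.069.

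Fewer markers of other leukocytes were tested. Of 13 neutrophil markers 2 were tested, and Elane had 0 reads in 9 libraries and S100a8, Mpo and Camp had 0 in 7 each. The summed neutrophil list ran from 8.16 to 13.2 FPKM on oxonic acid and from 8.84 to 11.9 FPKM on vehicle. Fcgr3a made up most of it, with means of 8.773 FPKM on oxonic acid and 8.497 FPKM on vehicle. The summed list therefore follows mainly that gene, and neutrophil content was not tested. T and NK cell markers summed to 28.2 to 28.6 FPKM on oxonic acid and 29.2 to 42.8 FPKM on vehicle, ranges that did not overlap. Most of that sum was Cd4, with means of 18.7 FPKM on oxonic acid and 21.3 FPKM on vehicle (limma adjusted p = 0.725). The mean log2 level of the list did overlap, at 1.13 to 1.36 on oxonic acid and 1.24 to 1.73 on vehicle. Prf1 and Klrd1 were higher on oxonic acid (log2 differences of 0.055 and 0.062). Of 8 tested, 6 were lower and 0 passed the threshold, with a median log2 difference of -0.28, against -0.18 for the macrophage markers. The share at an unadjusted limma p under 0.05 was 37.5%, against 40% for macrophage markers and 9.49% over all genes tested. Cd3e had the largest difference of these 8, -0.65 (limma adjusted p = 0.333). Markers of B and plasma cells, 0 of 7 tested, summed to at most 1.97 FPKM. The part of these cells in the values above was not tested.

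The genes most like the 9 over libraries were picked by their r from all other tested genes, so high values were bound to occur. The mean standardized level of the 9 had its highest Pearson r, over 10 libraries and with no test, with Rgs19 (0.948), a regulator of G protein signalling, Cd37 (0.945), a tetraspanin of leukocytes, and Zc3h12d (0.919), a member of the Zc3h12 family. Cd37 measured 7.20 to 10.5 FPKM on oxonic acid and 9.19 to 16.3 FPKM on vehicle, and Rgs19 3.42 to 3.69 and 3.63 to 6.29 FPKM. Each peaked in vehicle library 2, as did the mean standardized level of the 9, at 1.44 against -0.72 to 0.36 in the other libraries.

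Other sensors, regulators and effectors of inflammasomes were mixed. Of 34 listed, 32 were in the table, 27 were tested, 15 were lower and 12 higher on oxonic acid, and 0 passed, with a median log2 difference of -0.075. Casp8, which can cleave interleukin 1 beta in place of caspase-1, measured 6.02, 4.82, 4.86, 5.78 and 5.27 FPKM in oxonic acid libraries 1 to 5, against 6.20, 6.58, 6.52, 6.16 and 6.88 FPKM in vehicle libraries 1 to 5. The groups did not overlap (1.91% of all genes in either direction), and the log2 difference was -0.26 (SE 0.075, limma adjusted p = 0.370). Sugt1, a co-chaperone that NLRP3 needs for stability in human cells, also did not overlap, at 13.8 to 15.5 FPKM on oxonic acid and 15.7 to 19.3 FPKM on vehicle (log2 difference -0.22, limma adjusted p = 0.389). It overlaps a pair of minus-strand genes of low level. Pstpip1, which binds pyrin, and Ninj1, which ruptures the membrane late in pyroptosis, had log2 differences of -0.34 and -0.18 (limma adjusted p of 0.401 and 0.516), and Pstpip1 was at -0.20 with the runs as a block.

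Interleukin 1 family ligands and receptors outside the 9 were few in this tissue. Of 17 listed, 16 were in the table and 6 were tested, all 6 lower on oxonic acid and 0 past the threshold, with a median of -0.083; Il33 was above 0 with the macrophage covariate (0.040) and Il1rap with the runs as a block (0.021). The alarmin Il33 was the most abundant, at 69.0 ± 8.18 FPKM on oxonic acid and 75.1 ± 10.4 FPKM on vehicle (SD, n = 5 each; limma adjusted p = 0.739). Its receptor Il1rl1 measured 0.480 ± 0.0634 and 0.651 ± 0.189 FPKM (limma adjusted p = 0.641). Il18bp, which neutralizes interleukin 18, measured 6.31 ± 0.664 and 6.84 ± 1.05 FPKM, and the co-receptor Il1rap 2.49 ± 0.296 and 2.62 ± 0.304 FPKM, in the same order (limma adjusted p of 0.779 and 0.861). Il1a, the other agonist of the type 1 receptor, had 0 reads in all 10 libraries, where 3 reads would have been worth 0.124 to 0.163 FPKM. The decoy receptor Il1r2 averaged 0.104 FPKM, on at most 7 reads per library.

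Receptor signalling genes were divided, 11 lower and 10 higher of 21 tested (22 listed), with 0 past the threshold and a median of -0.0036. Map3k7, the kinase downstream of the receptor, measured 0.416 ± 0.211 FPKM on oxonic acid and 1.14 ± 0.466 FPKM on vehicle (SD, n = 5 each; log2 difference -0.81, limma adjusted p = 0.370), a low level near the filter. Its difference was -1.25 with a pseudocount of 0.1, -0.58 with a pseudocount of 1 and -1.43 with voom. The ubiquitin-conjugating enzyme Ube2n, the kinase Mapk8 and the inhibitor Tollip had log2 differences of -0.13, -0.23 and 0.099 (limma adjusted p of 0.481, 0.537 and 0.557).

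Genes that interleukin 1 and NF-kappaB induce were mostly lower, 16 of 19 tested (27 listed), with 0 past the threshold and a median of -0.12. The adhesion molecule Icam1 measured 14.7 ± 1.37 FPKM on oxonic acid and 17.3 ± 1.48 FPKM on vehicle (log2 difference -0.23, limma adjusted p = 0.414), and the apoptosis inhibitor Birc3 4.52 ± 0.861 and 6.41 ± 1.74 FPKM (-0.44, limma adjusted p = 0.473; SD, n = 5 each). Nfkbiz, a nuclear regulator of NF-kappaB, had a log2 difference of -0.35 (limma adjusted p = 0.514) and the lipocalin Lcn2 one of -0.72 (limma adjusted p = 0.481). Fitting a block for the run gave smaller differences, -0.13 for Icam1, -0.17 for Birc3 and -0.45 for Lcn2. Lcn2 reached 48.1 and 36 FPKM in vehicle libraries 4 and 2, against 10.1 to 21.7 FPKM on oxonic acid. In vehicle libraries 1, 3 and 5 it measured 20.4, 22.6 and 18.5 FPKM, so the groups overlapped. Il6 and Tnf, classical targets, averaged 0.172 and 0.0270 FPKM and were not tested.

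**Figure D4:**
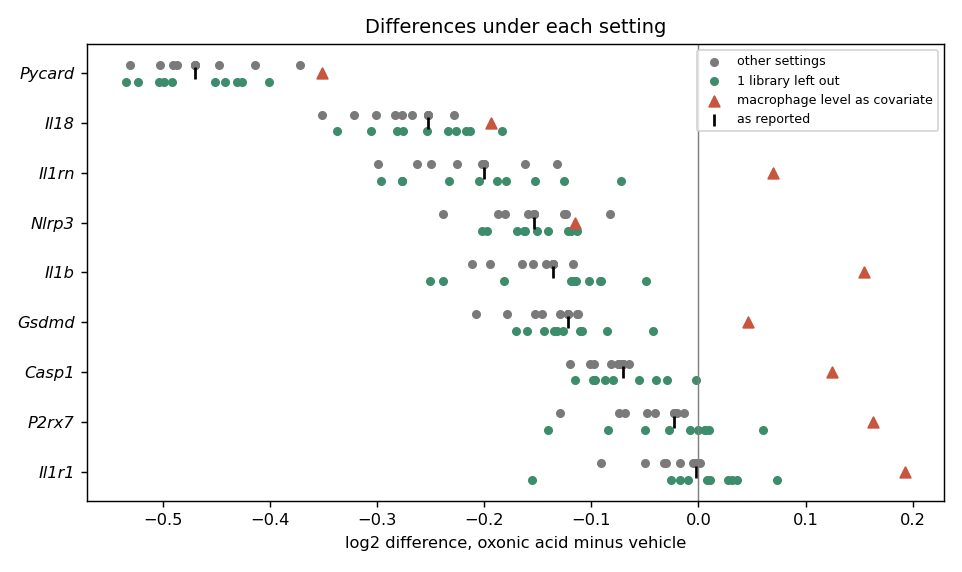
Log2 difference, oxonic acid minus vehicle, of each gene as reported (black bar), with 1 library left out (green), with the macrophage level as a covariate (red triangle) and under the other settings (grey). Pycard, Il18 and Nlrp3 stay below 0 throughout, the triangles of the other 6 genes are above 0, and Il1r1 and P2rx7 lie on both sides of 0 with 1 library left out.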

How the data were processed

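The deposited table holds FPKM values computed by the authors per gene and library. Trizol extraction, poly-T bead selection and random priming are described, per the labels' protocols, which do not state whether these libraries were directional. Per the submitters' processing notes, featureCounts 1.5.0-p3, StringTie 1.3.3b, HISAT2 2.0.5 and fastp were used. The sources used here do not give the genome build. FPKM times gene length was a whole multiple of a constant in each library, so reads could be recovered (tolerance 0.01 read, 100% of values), 14.5 M to 18.5 M in genes. FPKM is relative, and low values rest on few reads.

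Genes with a mean of at least 0.5 FPKM (14508 of 32545) were tested on log2(FPKM + 0.5) for oxonic acid against vehicle. The test was limma 3.58.1 under R 4.3.3, with a trended eBayes prior, two-sided and Benjamini-Hochberg adjusted over all genes tested, threshold 0.05. The pseudocount understates the change of low genes, and the 95% intervals are not adjusted for the number of genes. The procedure was tested on simulated data. Correlations used permutation tests with 100000 resamples. Python 3.11.15, scipy 1.17.1 and matplotlib 3.10.9 were used. Reads behind a value are not independent molecules, so Poisson intervals cover counting error only.

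The genes and lists were chosen with earlier results of these data known, so no set test was run. Of 202 list symbols in 13 lists, 192 were in the table; where a symbol repeated, the row with the highest mean was used. Genes named are the 9, the 4 with the smallest unadjusted p in each pathway list, and the 3 most like the mean level of the 9; Nlrp6 and other list genes given as values were named after these were seen. No libraries agreed within sampling noise (lowest chi-square per degree of freedom 5.00). Alternatives covered the pseudocount, the filter, the scaling, voom on recovered reads, array weights, blocks, a macrophage covariate and leaving out each library.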

Additional observations from a re-analysis of the deposited data

Results flagged for a closer look

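In 50 groups of 5 libraries, those of the 9 genes and of the 16 other genes named by rule, 2 had a library far from the rest, no more than the 5% or so of groups that chance flags. Il1b in oxonic acid library 1 measured 3.56 FPKM, against 2.12 to 2.32 FPKM in the other 4 oxonic acid libraries, a gap of 0.861 of the group's range (critical value 0.71). Gsdmd in vehicle library 2 measured 7.54 FPKM, against 5.31 to 5.88 FPKM in the other 4 vehicle libraries, a gap of 0.743 of the range.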

How the results depend on the processing

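The count of genes called was 0 and stayed 0 under the pseudocounts, filters, scalings, blocks, voom and the macrophage covariate; it was 1 with limma's array weights and 0 to 1 with 1 library left out (1 only without vehicle library 1). The median difference of the 9 genes, -0.14, was 0.069 with the macrophage covariate, -0.21 with the runs as a block and -0.20 to -0.049 with 1 library left out, the smallest without vehicle library 2. None of the 9 genes passed under any of 21 settings, the smallest limma adjusted p being 0.260. Of 188 values of the 9 genes, 171 kept the direction and the side of the threshold and 17 changed sign. With the macrophage covariate Casp1 was 0.12, Gsdmd 0.046, Il1b 0.15, Il1rn 0.069, Il1r1 0.19, P2rx7 0.16 and Il33 0.040. With a pseudocount of 0.1 Il1r1 was 0.0018, and with the runs as a block Il1rap was 0.021, Il33 -0.062, Il18bp -0.17, P2rx7 -0.074 and Il1r1 -0.030. With 1 library left out Il1r1 ran from -0.16 to 0.073, P2rx7 from -0.14 to 0.060 and Pycard from -0.53 to -0.40. The cause of these changes was not tested. Replicate numbers are shared between the groups but did not pair the libraries: the correlation of deviations was -0.013 to 0.203 over 5 pairs, 1 of them over 0.1, and only the libraries numbered 5 correlated best with each other. With the replicate block 0 genes were called (1445 at an unadjusted p under 0.05) and Pycard was -0.47 (limma adjusted p = 0.347). P2rx7 has no value with the filter at 1 FPKM. Depth limits Il1b, Il18, Il1rn and P2rx7 most.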

Other observations

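Nlrp6, an inflammasome sensor best known from intestinal epithelium, was at 7.65 and 2.95 FPKM in vehicle libraries 4 and 5. In the other 8 libraries, including the oxonic acid library of the same run of sample numbers, it lay between 0.313 and 0.651 FPKM. Its means were 0.530 ± 0.128 FPKM on oxonic acid and 2.40 ± 3.12 FPKM on vehicle (SD, n = 5 each; limma adjusted p = 0.608). Nlrp3 in the same vehicle libraries measured 1.79 and 2.06 FPKM, within the range of the other 8.

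Several sensors other than Nlrp3 were present at a like level and did not pass the threshold. Nlrc4 measured 1.27 ± 0.214 FPKM on oxonic acid and 1.09 ± 0.103 FPKM on vehicle, Nlrp1a 1.98 ± 0.205 and 1.78 ± 0.399 FPKM, Mefv 1.83 ± 0.217 and 1.77 ± 0.453 FPKM and Aim2 1.53 ± 0.304 and 1.78 ± 0.509 FPKM, each in that order (SD, n = 5 each). Txnip, a redox-regulated partner of NLRP3, was far more abundant, at 124 ± 11.9 FPKM on oxonic acid and 111.5 ± 13.6 FPKM on vehicle (limma adjusted p = 0.598).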
